A study of Mus musculus with 6 samples.

Results

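The YAP and TAZ arm of the Hippo pathway was followed through 10 genes (Yap1, Wwtr1, Tead1, Ctgf, Cyr61, Ankrd1, Amotl2, Lats2, Axl and Asap1), chosen by name, among 18193 genes with at least 1 probe set of a single gene symbol. The annotation writes Ctgf as Ccn2 and Cyr61 as Ccn1. They are the 2 coactivators, 1 DNA-binding partner and 7 genes that are widely used as direct targets, and each was represented by the probe set with the highest mean of log2(signal + 50) over the 6 arrays. Of the 10 genes, 9 reached the mean signal of 100 required for testing, and Ankrd1 did not.

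YAP (encoded by Yap1) and TAZ (encoded by Wwtr1) are transcriptional coactivators that are held in the cytoplasm and degraded when the LATS kinases of the Hippo pathway phosphorylate them. Unphosphorylated, they enter the nucleus and act through TEAD proteins, which bind DNA at a short site whose core reads GGAATG, or CATTCC on the other strand. Stiff substrates, spread cells and tension in the actin cytoskeleton are known to favour the nuclear form, and activity of the coactivators has been linked to migration and metastasis of breast cancer cells. The arrays measured messenger RNA, so they report on the abundance of these transcripts and not on phosphorylation or location of the proteins.

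RNA came from 3 cultures of E0771-HML2 and 3 cultures of parental E0771, a mammary tumour line of C57BL/6 mice, with 1 Affymetrix array per culture. HML2 is a second-generation population: tumour cells injected orthotopically into syngeneic mice were recovered from lung metastases, and the cycle was run again, whereas parental cells were unselected. All cultures had spent 3 days in medium with 10% serum and 1% penicillin and streptomycin, and the labels name no transgene or other agent for either population. The labels call the cultures biological replicates without naming animals or clones, so the p-values cover only variation among cultures, which may be technical.

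Signals are linear MAS5 values scaled to a trimmed mean of 500 on every array. The 3 bacterial tryptophan control probe sets, a gauge of background and called the bacterial controls below, read 1.97 to 36.2. Of 5 mammary epithelial markers, Krt8 and Epcam reached a mean of 100 over the 6 arrays, and Cdh1 read 3.76 to 45.1, near the controls. The summed signal of the 5 was 3782 to 5057 in HML2 and 1266 to 1355 in parental cells. Krt8 carried it (4175 ± 650 in HML2, 1095 ± 60.3 in parental cells), whereas Epcam was below its parental arrays on every HML2 array (83.5 ± 15.0 in HML2, 133 ± 24.5 in parental cells). The sum of 5 fibroblast markers was 1149 to 2109 in HML2 and 2455 to 4491 in parental cells; 2 of them, Pdgfra and Pdgfrb, carried it, while Col1a1, Dcn and Lum averaged below 100. The sum of 5 leukocyte markers was 694 to 769.8 in HML2 and 436 to 630.4 in parental cells, with 2 of 5 at a mean of 100 and Ptprc at 0.994 to 19.8. Those 2 differed in opposite directions, Cd14 with means of 498 in HML2 and 236 in parental cells and Lyz2 with 78.9 in HML2 and 192 in parental cells. Endothelial markers summed to 252 to 357 in HML2 and 79.2 to 167 in parental cells (0 of 5 at 100). Icam2 made most of that difference (177 in HML2, 6.39 in parental cells), while Pecam1 had means of 5.96 in HML2 and 10.4 in parental cells. Lung epithelial markers summed to 141 to 255 in HML2 and 149.6 to 248 in parental cells (1 of 5), with Sftpc at 12.6 to 71.6. The ratio of 3' to 5' signal, a measure of RNA integrity, was 0.770 to 0.816 in HML2 and 0.799 to 0.803 in parental cells for Gapdh, and 1.36 to 1.39 against 1.41 to 1.53 for beta-actin. The part of these differences in the results was not tested.

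The comparison asks whether the lung-selected population differs from its parental cells in the transcripts of YAP, TAZ and TEAD1 and of their targets. Asap1 and Axl were the members that fell in HML2 cells, and no member rose. Ctgf had the largest log2 difference of the 10 genes, with a mean signal of 157 ± 83.5 in HML2 against 659 ± 535 in parental cells (SD, n = 3), but it did not pass the test, and its parental arrays ranged from 136 to 1206. At their brightest probe sets Yap1, Wwtr1 and Tead1 had log2 differences of -0.31, -0.20 and -0.22, and none of these passed. A gene was called at a limma adjusted p below 0.05, with Benjamini-Hochberg adjustment over all 9361 genes tested.

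In numbers, 2 of the 9 tested members were called lower (limma), where 14.9% of all tested genes were. Called higher were 0, where 12.3% of all tested genes were. The count of 2 is near its background and is not a result about the members as a group. Unadjusted, 4 members had a limma p below 0.05 at their brightest probe sets, all lower. At their brightest probe sets all 9 had a lower mean in HML2, with a median log2 difference of -0.31 against -0.02 over all tested genes. With the mean of a gene's probe sets, Yap1 (0.10) and Wwtr1 (0.19) had the opposite sign. The 3 HML2 arrays lay below the 3 parental arrays for Yap1, Axl and Asap1, that is 3 of 9, where 23.8% of all genes had this pattern. In cultures, a smaller share of cells with a transcript and less transcript per cell cannot be told apart.

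**Figure D1:**
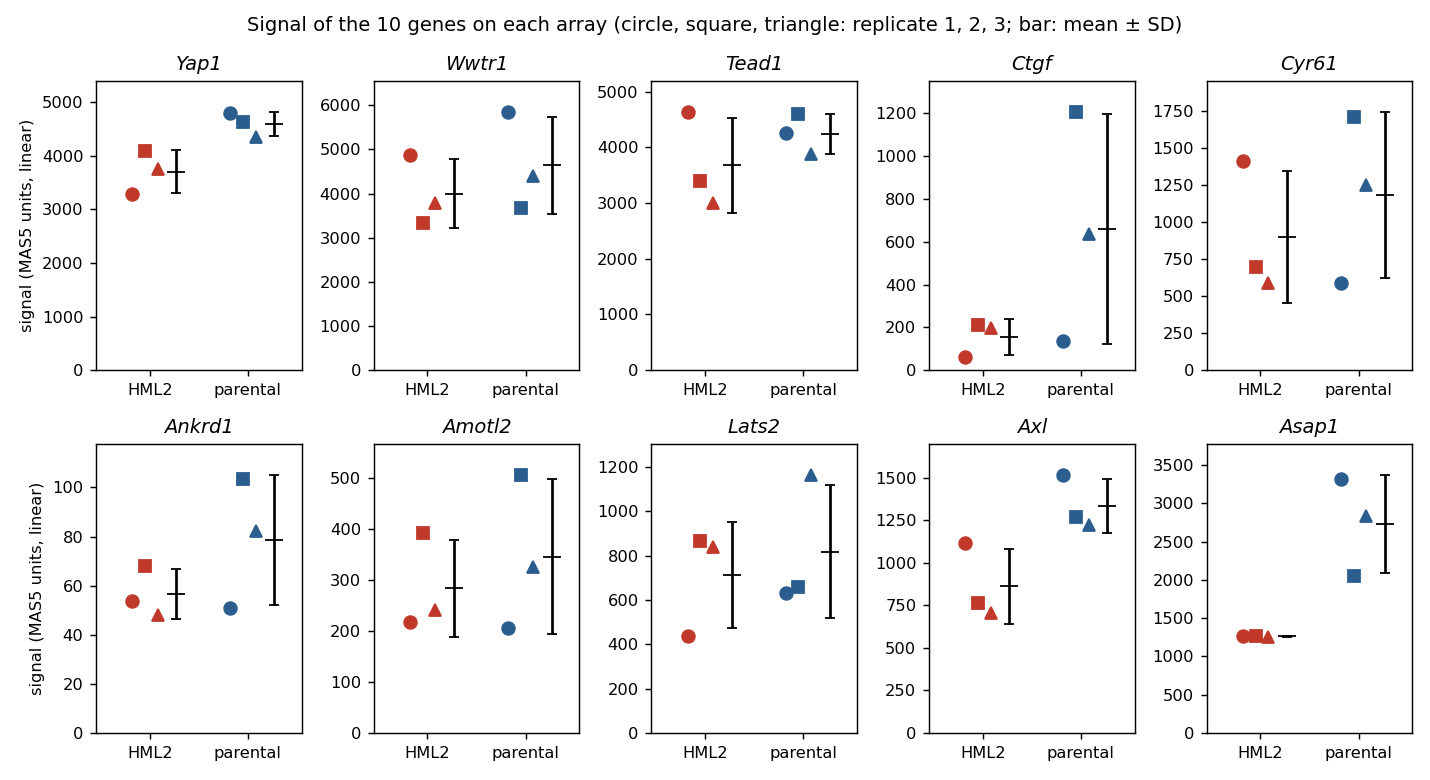
Linear MAS5 signal (vertical axes from 0, each with its own scale) of the 10 genes on the 3 HML2 and 3 parental arrays, with circle, square and triangle for replicates 1, 2 and 3 and a bar for the mean ± SD. The HML2 points of Asap1 lie together near 1260.4 and all below the parental points, while the parental points of Ctgf spread between 136 and 1206.

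The coactivator gene Yap1 (probe set 1448363_at) had signals of 3277, 4084 and 3749 in HML2 replicates 1 to 3, against 4796, 4618 and 4348 in the parental replicates. Every HML2 array was below every parental one, although the gap between the groups, from 4084 to 4348, was small. The log2 difference was -0.31 ± 0.12 (SE), with a 95% confidence interval of -0.58 to -0.04 before adjustment and an adjusted p of 0.086 (limma).

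A second Yap1 probe set, 1416487_a_at, gave the opposite direction. It read 418, 608 and 684 in HML2 cells, against 358, 500.05 and 296 in parental cells. The groups overlapped through parental replicate 2, and the difference of 0.51 was not called (adjusted p = 0.13 in a limma fit of all single probe sets). In the names of this array design, "_a_at" marks a probe set that matches several transcripts of its gene. The mean of both Yap1 probe sets had a difference of 0.10, so the sign for Yap1 depended on the probe set.

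Wwtr1, the gene of TAZ, showed the same disagreement between its probe sets. The brightest, 1417818_at, read 4866, 3338 and 3797 in HML2, against 5847, 3677 and 4388 in parental cells. The groups overlapped, and replicate 1 was the highest array of each. The difference was -0.20 ± 0.20, with an interval of -0.65 to 0.24 and an adjusted p of 0.48 (limma).

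The other Wwtr1 probe sets had higher means in HML2 cells, without passing the test. Probe set 1417817_a_at read 1523, 954 and 1036 in HML2, against 1005, 685 and 708 in parental cells, a difference of 0.51 (adjusted p = 0.11, limma on single probe sets). Probe set 1437155_a_at had a difference of 0.24 (adjusted p = 0.47). Within each replicate number the sign was the same for all 3 numbers: the brightest probe set had differences of -0.26, -0.14 and -0.21 (numbers 1, 2 and 3), and 1417817_a_at had 0.58, 0.45 and 0.52. The mean of the 3 probe sets had a difference of 0.19.

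Tead1, which encodes the DNA-binding partner, read 4633, 3397 and 2995 in HML2, against 4257, 4591 and 3873 in parental cells (1429556_at). HML2 replicate 1 was the highest array of all 6, whereas the other HML2 arrays were below every parental array. The difference was -0.22 ± 0.17, with an interval of -0.60 to 0.16 and an adjusted p of 0.35; without HML2 replicate 1 it was -0.40 and called (limma adjusted p = 0.023). A dim second probe set, 1423434_at, read 77.0 to 112 in HML2 and 46.9 to 85.3 in parental cells, below the level required for testing.

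Promoters of the members were searched for the TEAD core. The RefSeq promoter table of build GRCm38.p6 held 7 of the 10 genes (Yap1, Wwtr1, Cyr61, Ankrd1, Amotl2, Lats2 and Axl). The 250 bases before each start site were searched for GGAATG and CATTCC, which are the same site on opposite strands. A match was found for 6 of these 7 genes, Lats2 being the exception, against 14.4% of the 27025 genes in the table. Ankrd1 had 2 matches, and 1.18% of all genes had more than 1. The members were chosen as genes of the TEAD pathway, so the share is a description and was not tested. A match shows letters and not binding.

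Shown here are the 250 bases before the start of 4 target genes, for the secreted factor Cyr61, the dim target Ankrd1, the feedback inhibitor Amotl2 and the called receptor gene Axl. Each is written 5' to 3' on the strand of the gene with the core of the TEAD site in capitals. The Cyr61 stretch is chr3:145649986-145650235 (minus strand), Ankrd1 is chr19:36119845-36120094 (minus strand), Amotl2 is chr9:102717554-102717803 (plus strand) and Axl is chr7:25788734-25788983 (minus strand), all in GRCm38.p6. The first base of the match lies 103 bases before the start of Cyr61, 210 and 123 before that of Ankrd1, 65 before that of Amotl2 and 233 before that of Axl.
Cyr61: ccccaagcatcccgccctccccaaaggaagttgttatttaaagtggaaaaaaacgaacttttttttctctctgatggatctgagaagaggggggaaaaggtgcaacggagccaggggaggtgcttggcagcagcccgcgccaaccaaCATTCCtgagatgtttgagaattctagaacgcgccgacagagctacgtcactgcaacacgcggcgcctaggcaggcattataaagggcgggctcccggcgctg
Ankrd1: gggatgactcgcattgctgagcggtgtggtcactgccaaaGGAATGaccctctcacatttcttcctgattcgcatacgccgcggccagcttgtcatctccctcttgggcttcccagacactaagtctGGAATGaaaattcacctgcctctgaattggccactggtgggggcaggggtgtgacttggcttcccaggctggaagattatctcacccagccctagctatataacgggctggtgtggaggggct
Amotl2: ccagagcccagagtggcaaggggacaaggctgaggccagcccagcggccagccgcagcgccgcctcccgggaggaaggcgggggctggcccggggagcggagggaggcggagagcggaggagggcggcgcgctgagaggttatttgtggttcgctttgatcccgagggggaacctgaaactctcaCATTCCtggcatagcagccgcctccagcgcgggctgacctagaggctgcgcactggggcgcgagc
Axl: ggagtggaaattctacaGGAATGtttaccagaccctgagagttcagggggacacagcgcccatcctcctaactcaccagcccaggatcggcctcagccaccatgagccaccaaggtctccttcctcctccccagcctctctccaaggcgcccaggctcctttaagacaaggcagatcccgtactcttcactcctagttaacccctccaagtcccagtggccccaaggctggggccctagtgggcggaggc

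Ctgf encodes a secreted matricellular protein and is among the most used readouts of YAP and TAZ. Its single probe set, 1416953_at, read 60.5, 211 and 199 in HML2, against 136, 1206 and 636 in parental cells. The groups overlapped only because parental replicate 1, at 136, lay below HML2 replicates 2 and 3. The difference was -1.49 ± 0.64, with an interval of -2.94 to -0.04 and an adjusted p of 0.12 (limma).

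Compared within replicate numbers, Ctgf was below its parental partner in HML2 for all 3 numbers, with log2 differences of -0.75, -2.27 and -1.46. With the number as a replicate block, its difference of -1.49 was called (limma adjusted p = 0.0042), beside Asap1 and Axl. That gives 3 of 9 members called lower, where 19.6% of all tested genes were called lower with the block. Without parental replicate 1 the difference was -2.27 (adjusted p = 0.012), and without parental replicate 2 it was -0.89 (adjusted p = 0.33).

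Cyr61 encodes a secreted protein of the same family as Ctgf and has the TEAD core in the promoter shown above. It read 1412, 700.3 and 588 in HML2, against 589.9, 1708 and 1249.9 in parental cells (1416039_x_at). Replicate 1 was the highest HML2 array and the lowest parental one, and the groups overlapped. The difference was -0.35 ± 0.40, with an interval of -1.28 to 0.57 and an adjusted p of 0.55.

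The sign of the Cyr61 difference turned with the replicate number, and it did so at all 4 of its probe sets. For number 1, HML2 was higher by 0.78 to 1.499 on the log2 scale. For number 2 the 4 differences ran from -1.26 to -0.27, and for number 3 from -1.03 to -0.75. Ctgf, read on the same RNA, was lower in HML2 for number 1 as well, and HML2 replicate 1 had the lowest Ctgf signal and the second highest Cyr61 signal of the 6 arrays at 1416039_x_at and 1438133_a_at, though not at the other Cyr61 probe sets. Affymetrix marks probe sets named "_x_at", as is the brightest of Cyr61, as open to hybridisation by other transcripts; 1457823_at and 1438133_a_at, which do not carry that mark, gave -0.20 and -0.24 over all arrays.

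Ankrd1, a nuclear and sarcomeric ankyrin repeat protein gene with 2 matches in its promoter, was near the limit of the arrays. Its brighter probe set, 1420992_at, read 53.8, 67.9 and 47.8 in HML2, against 50.8, 103 and 82.1 in parental cells. Parental replicate 1 lay within the HML2 range and the other parental arrays above it. The difference of -0.26 was not tested, since the mean signal was below 100.

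**Figure D2:**
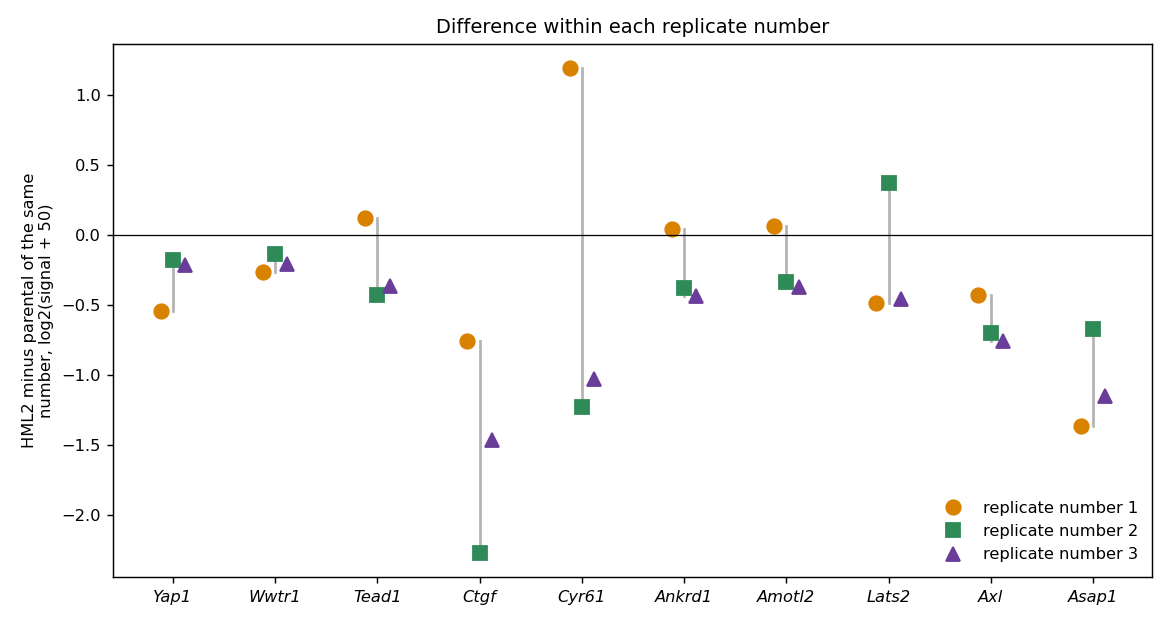
Log2 difference between the HML2 and the parental array of the same replicate number (vertical axis, log2 of signal + 50) for the 10 genes, with circle, square and triangle for numbers 1, 2 and 3. All 3 points lie below 0 for Yap1, Wwtr1, Ctgf, Axl and Asap1, while those of Cyr61 run from -1.23 for number 2 to 1.19 for number 1.

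Feedback inhibitors are targets that in turn restrain YAP and TAZ. Amotl2 encodes an angiomotin, which binds YAP at junctions and actin. It read 217, 391.8 and 241 in HML2, against 205, 507 and 326 in parental cells, and replicate 2 was the highest array of each group. The groups overlapped, with a difference of -0.21 ± 0.30, an interval of -0.90 to 0.48 and an adjusted p of 0.64.

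Lats2 encodes a kinase that phosphorylates YAP and TAZ. Its brightest probe set, 1439441_x_at, read 437, 864 and 838 in HML2, against 631, 658 and 1166 in parental cells. Like that of Cyr61, it carries the "_x_at" mark of probe sets open to hybridisation by other transcripts. HML2 replicate 1 was the lowest array and parental replicate 3 the highest, and HML2 replicates 2 and 3 lay between parental replicates 2 and 3. The difference was -0.19 ± 0.30, with an interval of -0.87 to 0.49 and an adjusted p of 0.68. It was 0.11 without HML2 replicate 1 and 0.080 without parental replicate 3.

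Another Lats2 probe set, 1437101_at, had a larger difference. It read 255, 459 and 511 in HML2, against 486, 745 and 614 in parental cells, with differences of -0.81, -0.64 and -0.25 for replicate numbers 1, 2 and 3. The groups still overlapped, and the difference of -0.57 was not called (adjusted p = 0.13, limma on single probe sets). Probe set 1419678_at had a difference of -0.061, and the other 3 were below the level for testing. Of these, 1425420_s_at read 63.0 to 86.2 in HML2 and 20.2 to 51.0 in parental cells, a difference of 0.59. Probe sets 1426156_at and 1419679_at had differences of 0.21 and -0.26. A further 1 probe set that the annotation assigns to Lats2 together with another gene was not used.

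Axl encodes a receptor tyrosine kinase for the ligand GAS6 and is a target through which YAP can promote survival and invasion. It read 1116, 766 and 704 in HML2, against 1519, 1272 and 1221 in parental cells (1423586_at). All HML2 arrays were below all parental arrays, and replicate 1 was the highest of each group. Axl fell by 0.63 ± 0.19 on the log2 scale, with an interval of -1.05 to -0.20 and an adjusted p of 0.038 (limma), a fold of 0.648.

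The call of Axl depended on which arrays were used. It held without HML2 replicate 1, where the difference was -0.82 (adjusted p = 0.0018), and with the replicate block (adjusted p = 0.0070). It was lost when any other array was left out: without HML2 replicate 2 or 3 the adjusted p was 0.11 and 0.13, and without parental replicate 1, 2 or 3 it was 0.12, 0.082 and 0.087. A second probe set, 1438621_x_at, read 5.81 to 24.2 in HML2 and 1.99 to 32.9 in parental cells, within the range of the bacterial controls.

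Asap1 encodes a GTPase-activating protein for ARF proteins that acts at focal adhesions and podosomes. It read 1260.4, 1269 and 1249 in HML2, against 3318, 2045 and 2830.3 in parental cells (1435059_at). The HML2 arrays were nearly equal and all were below the lowest parental array. Asap1 fell by 1.06 ± 0.18 on the log2 scale, with an interval of -1.46 to -0.66 and an adjusted p of 0.0035 (limma), a fold of 0.480.

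All 3 Asap1 probe sets were lower in HML2 and none had overlapping groups. Probe set 1425572_a_at read 618, 895 and 779 in HML2, against 1330.1, 1736 and 1209 in parental cells, and 1425573_a_at read 255, 270.5 and 273 against 535, 644 and 369. Their differences were -0.86 (adjusted p = 0.010) and -0.81 (adjusted p = 0.018; limma on single probe sets). Asap1 was the only member whose call held in all 16 alternative settings, with differences from -1.25 to -0.91.

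Over all 26 probe sets of the 10 genes, 19 passed the signal filter, of which 15 had a lower and 4 a higher mean in HML2. The 4 called ones were the 3 of Asap1 and the brighter one of Axl, all lower. Over the whole table, 14.1% of single probe sets were called lower and 11.3% higher. Of the 5 genes with several probe sets that passed, Yap1, Wwtr1 and Cyr61 had probe sets of both signs.

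**Figure D3:**
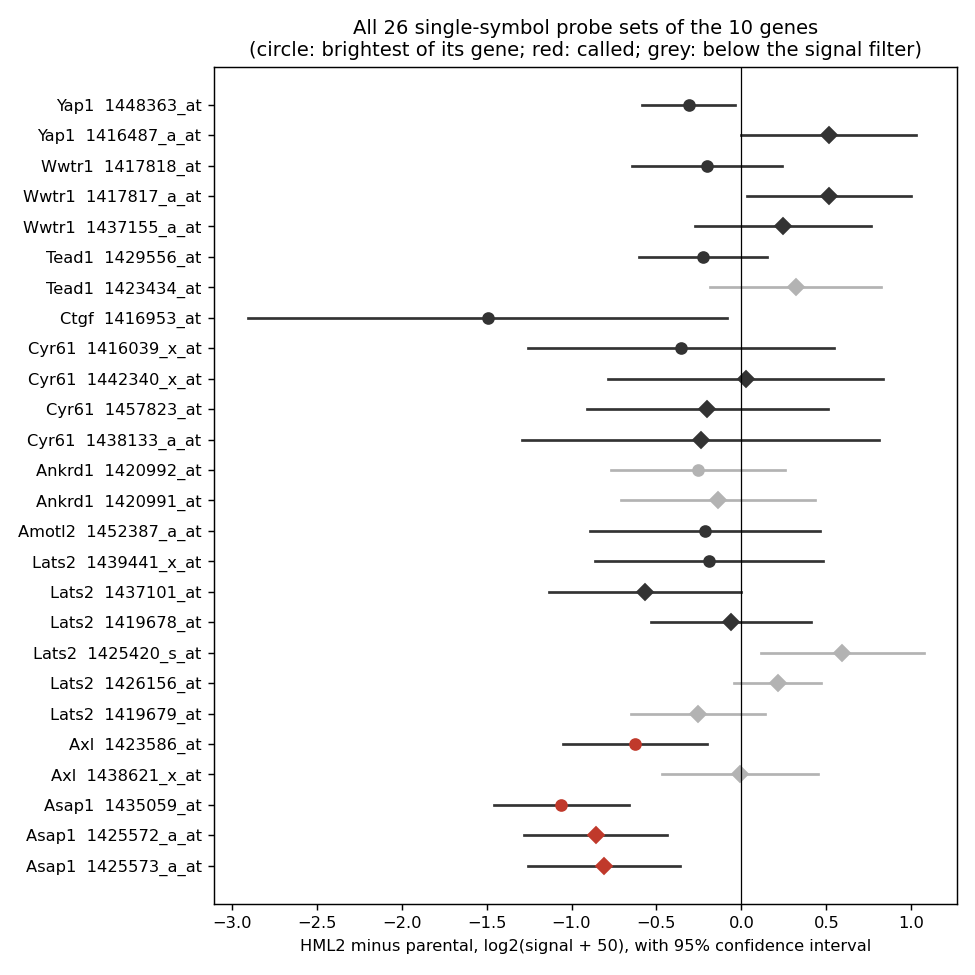
Log2 difference between HML2 and parental cells (horizontal axis, log2 of signal + 50) with its unadjusted 95% confidence interval for the 26 probe sets, with circles for the brightest of each gene, red for those called and grey for those below the signal filter. The 3 probe sets of Asap1 lie between -1.06 and -0.81, whereas those of Yap1 and Wwtr1 fall on both sides of 0.

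For Asap1, the called member with the largest difference, the tested genes with the most similar profile over the 6 arrays were Mterf4, Sbk1 and Gtf2ird2, with root mean square distances of 0.069, 0.089 and 0.098 between centred log2 values. Mterf4 had a mean of 466 ± 34.7 in HML2 and 1107 ± 268 in parental cells (SD, n = 3). Sbk1 averaged 128 ± 15.7 in HML2 and 348 ± 89.0 in parental cells, and Gtf2ird2 253 ± 9.61 in HML2 and 515 ± 119 in parental cells. The likeness is a description over 6 arrays of 2 groups.

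Other genes of the pathway were taken from lists written from general knowledge, with earlier results of these data known. Their counts are to be read beside the shares of 14.9% lower and 12.3% higher over all tested genes. In the kinase module, which carries the signal from the MST kinases to LATS, 13 of 16 listed genes were tested, of which 1 rose and 3 fell, with a median log2 difference of -0.024. Wwc1, the gene of the scaffold KIBRA that activates LATS, averaged 1423 ± 234 in HML2 and 790.3 ± 165 in parental cells (0.82, adjusted p = 0.015). Map4k4 (-0.64, adjusted p = 0.028) and Taok3 (-0.67, adjusted p = 0.041) encode kinases upstream of LATS, and Csnk1d (-0.52, adjusted p = 0.028) a casein kinase that marks YAP for degradation.

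None of these 4 calls held in every alternative. Wwc1 lost it without parental replicate 3 (adjusted p = 0.060). Taok3 lost it without HML2 replicate 2 or any parental array (up to 0.13), and Map4k4 without HML2 replicate 2 or 3 or parental replicate 1 or 3 (up to 0.092). Csnk1d lost it without any one parental array (up to 0.089), and 2 of its 4 other probe sets that passed the filter were called higher. Taok3 also lost it without a signal filter (0.091), with quantile normalization (0.068) and with median centring (0.060), and Csnk1d with median centring (0.056). With the mean of a gene's probe sets the calls of Taok3 (-0.38), Map4k4 (-0.40) and Csnk1d (-0.068) were lost as well.

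Regulators at junctions and the cytoskeleton had 2 lower and 0 higher genes among 10 tested of 17 listed, with a median of -0.25. Frmd6, the gene of a FERM protein that can activate the kinase module, averaged 3380.2 ± 509 in HML2 and 5779 ± 445 in parental cells (-0.77, adjusted p = 0.0045), and held its call in all 16 alternatives. The giant cadherin gene Fat1 averaged 2623 ± 408 in HML2 and 5807 ± 2441 in parental cells (-1.04, adjusted p = 0.036). Its call was lost without HML2 replicate 2 or 3 or parental replicate 2 or 3 (up to 0.13) and without a signal filter (0.065), and its parental replicate 1 was low, at 3118 against 7882 and 6421 on the other parental arrays.

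Among the other TEAD genes and their VGLL cofactors, 1 of 4 tested genes (7 listed) rose and 0 fell, with a median of -0.11. Tead4 read 559, 293 and 304 in HML2, against 126, 122 and 109 in parental cells. All HML2 arrays were above all parental ones, and Tead4 rose by 1.31 ± 0.24 on the log2 scale (limma adjusted p = 0.0051), a call that held in all 16 alternatives. Vgll4, the gene of a cofactor that competes with YAP for TEAD proteins, averaged 727 ± 90.8 in HML2 and 769.5 ± 17.3 in parental cells (-0.08, adjusted p = 0.70). Whether Tead4 and Tead1 differed in their change was not tested.

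A list of 15 further YAP and TAZ targets, known from human cancer cell lines, had 2 higher and 4 lower genes among 11 tested, with a median of -0.31. Rbms3, an RNA-binding protein gene, had a mean of 560 ± 44.5 in HML2 and 39.9 ± 10.0 in parental cells and was called higher (2.77, adjusted p = 3.6e-05). Its parental signals of 46.4, 28.3 and 45.0 were close to the bacterial controls, so it passed the filter through HML2 alone and the size depends on the offset: it was 3.38 with an offset of 16 and 3.81 with an offset of 1. Dock5, the gene of a RAC activator, rose by 0.57 ± 0.17 (adjusted p = 0.038). In the other direction were the growth factor gene Tgfb2 (-1.81, adjusted p = 2.3e-04), the ectonucleotidase gene Nt5e (-1.26, adjusted p = 0.0063), Ptpn14 (-0.89, adjusted p = 0.0021) and Arhgef17 (-0.50, adjusted p = 0.031). Nt5e averaged 92.9 ± 37.1 in HML2 and 289 ± 73.4 in parental cells, so it passed the filter through its parental signals. The size for Nt5e also depends on the offset: it was -1.51 with an offset of 16 and -1.67 with an offset of 1. Other genes with low signals had this dependence too. With offsets of 16 and 1, Ctgf had -1.67 and -1.78, Tead4 1.51 and 1.62, and Tgfb2 -1.98 and -2.07.

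Ptpn14 encodes a phosphatase that binds and restrains YAP. It averaged 931 ± 116 in HML2 and 1766 ± 41.1 in parental cells, and its call was lost when its probe sets were averaged (-0.32, adjusted p = 0.11), since the other one had the opposite sign. Rbms3, Tgfb2 and Nt5e kept their calls in every alternative in which they were tested. Dock5 lost its call without HML2 replicate 3 or any parental array (up to 0.13), and Arhgef17 without any array but HML2 replicate 1 (up to 0.097). Arhgef17 also lost it without a signal filter (0.083), with quantile normalization (0.057) and with median centring (0.051), and had a difference of -0.78 with the mean of its probe sets. Dock5 lost it without a signal filter as well (0.078). With the replicate block 3 genes of this list were called higher and 5 lower. Of all 9361 tested genes, 1670 were called higher and 1831 lower with the block.

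**Figure D4:**
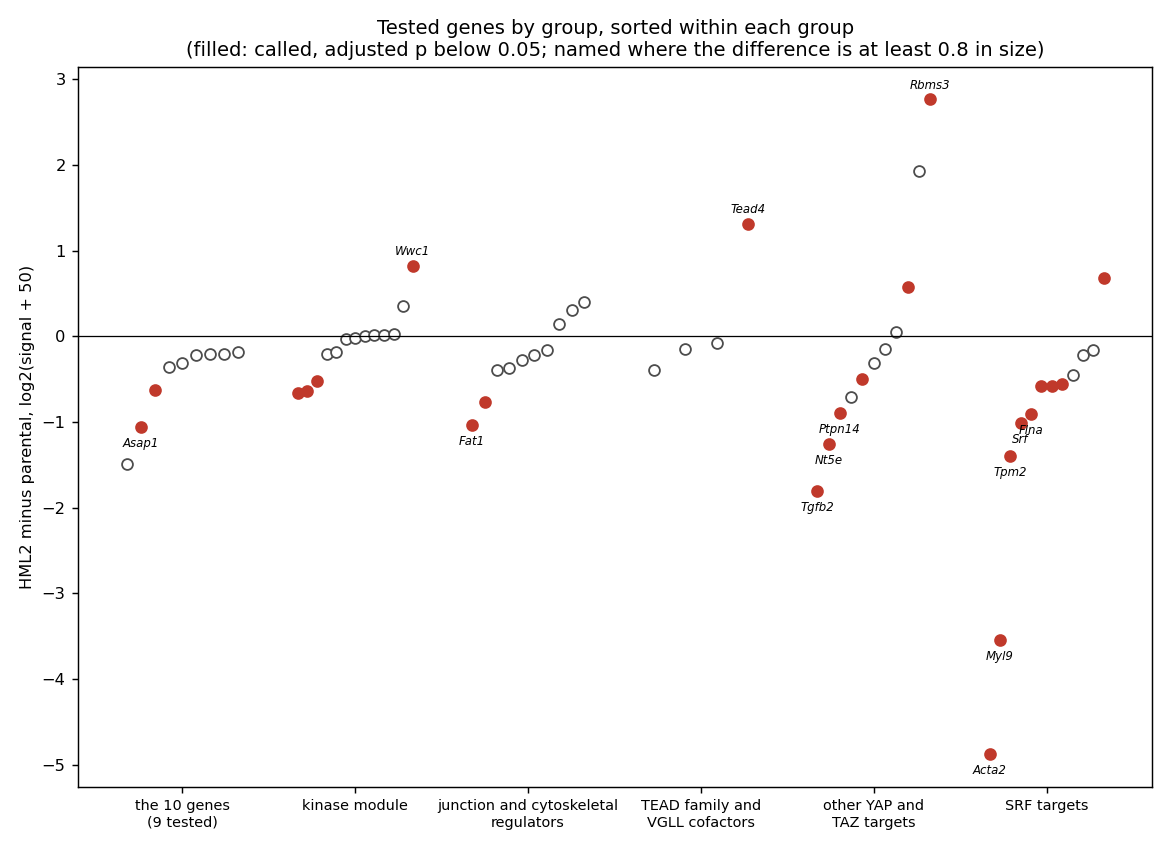
Log2 difference between HML2 and parental cells (vertical axis, log2 of signal + 50) for the 9 tested members and the tested genes of 5 lists, sorted within each group, filled where called. Of the called genes, Tead4 and Rbms3 stand above 1, and the lowest values, Acta2 and Myl9, belong to the SRF targets.

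Ctgf, Cyr61 and Ankrd1 are also known to respond to the actin-regulated factor SRF and to TGF-beta, so SRF targets were set beside them. Of 12 tested among 15 listed, 8 were lower and 1 higher, with a median of -0.58. With the replicate block 9 were lower, where 19.6% of all tested genes were called lower. Acta2 (-4.88 ± 0.41, adjusted p = 1.5e-04) and Myl9 (-3.55 ± 0.48, adjusted p = 0.0014), smooth muscle actin and myosin light chain genes, had the largest differences. Tpm2 (-1.40), Srf itself (-1.01), Flna (-0.91), Filip1l (-0.58) and Cald1 (-0.58) fell as well, and the focal adhesion gene Zyx rose (0.68). On the parental arrays Acta2 and Myl9 were lowest on replicate 1 (8236 and 1267), as Ctgf and Cyr61 were, and highest on replicate 2 (20497 and 4501). On the HML2 arrays replicate 1 was lowest for Acta2, Myl9 and Ctgf (257, 99.1 and 60.5) but highest for Cyr61 (1412 at 1416039_x_at). Not every SRF target had the parental order, since Cald1 (13888), Vcl (6145) and Zyx (783) were lowest on parental replicate 3. Some genes outside this list had it too, such as Fat1 (3118, 7882 and 6421 on parental replicates 1 to 3) and Amotl2 (205, 507 and 326). Whether these genes share a cause was not tested. The call of Srf was lost without parental replicate 2 or 3 (up to 0.066), and its difference was -0.49, still called, with the mean of its probe sets. Filip1l lost its call without HML2 replicate 2 or any parental array (up to 0.11), and Cald1 without any array but HML2 replicate 1 (up to 0.058).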

How the data were processed

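Expression was measured on 6 Affymetrix whole-genome mouse arrays, 3 of HML2 and 3 of parental cells. Per the submitters' processing notes the authors used MAS5, and the deposited values are linear intensities of each probe set; no source used here gives its version. The deposited table is scaled, since the mean without the lowest and highest 2% of signals is 500 on all arrays, which removes any difference in total messenger RNA, and it has no detection calls.

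Of 45101 probe sets, 34945 had a single gene symbol in the array annotation of 2016. Symbols were updated through RefSeq (GRCm38.p6). No genome build is named for the arrays. Signals were converted to log2(signal + 50), which understates the change of dim genes, those averaging 100 or more in signal were kept, and the brightest represented each gene. HML2 and parental arrays were compared across all 9361 genes with limma 3.58.1 in R 4.3.3 (lmFit, eBayes with intensity trend), and p-values were adjusted by Benjamini-Hochberg. A separate limma fit took each of 16412 probe sets by itself, a choice made after seeing the data. The fit was tested on simulated arrays that varied independently of one another. That test did not cover the shared deviations of same-numbered arrays described below.

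The members, the lists and the tests were chosen with earlier results of these data known. Named were all members and their probe sets, of each list the called genes (at most 8, by size of difference) or otherwise its brightest, to make at least 2, and the 3 genes most like the called member that differed most. To check the replicate numbers, each array's deviation from its group mean was correlated over genes between groups. HML2 and parental arrays of the same number had correlations of 0.45, 0.34 and 0.24, above the bound of 0.1, so the number entered an alternative as a block. HML2 replicate 3 and parental replicate 2 also had 0.24. The labels do not say what the number stands for. The number of arrays limits precision.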

Additional observations from a re-analysis of the deposited data

How the results depend on the processing

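Asap1 kept its call, and Ctgf, Cyr61, Tead1, Axl and Asap1 their direction, in all 16 alternatives. Not every alternative could turn a direction. Changing the signal filter, dropping the intensity trend or adding the replicate block left these differences as they were. For Ctgf, Tead1 and Axl the mean of probe sets did so too, since a single probe set of each passed the filter. Of the 9361 tested genes, array weights called 2422 higher and 2631 lower. Of the 9 tested members, 6 were then called lower: besides Asap1 and Axl these were Yap1 (-0.22), Tead1 (-0.34), Ctgf (-1.38) and Cyr61 (-0.85). This count is to be read beside the 2631 genes and not beside the 14.9% of the main fit. With the replicate number as a block, Ctgf was called (-1.49) and 1 junction gene was called higher, and no other member changed its call. Without a signal filter the Axl difference of -0.63 was not called (adjusted p = 0.065), which left 1 member, and 1 junction gene was lower and 1 further target higher; more genes were then tested. The mean of a gene's probe sets turned Yap1 to 0.10 and Wwtr1 to 0.19 and called 2 kinase module genes higher and 0 lower. Single probe sets, added after seeing the data, gave 0.51 for Yap1, 0.51 and 0.24 for Wwtr1 and 0.025 for Cyr61 with the sign turned. Median centring left 1 kinase module gene lower. Array weights gave 2 kinase module genes and 1 junction gene higher and 1 TEAD or VGLL gene lower.

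Leaving out single arrays gave 590 to 1577 genes higher and 795 to 1845 lower of the 9361 tested, and 1 to 3 of the 9 tested members lower. The fewest genes were called without parental replicate 3. Most were called without HML2 replicate 1, more than on all 6 arrays (1155 higher and 1395 lower). The member and list counts are to be read beside these ranges. Differences ranged from -0.40 to -0.091 for Tead1, -0.35 to -0.023 for Wwtr1, -0.77 to -0.039 for Cyr61, -0.42 to -0.12 for Ankrd1 (not tested), -2.27 to -0.89 for Ctgf, -0.49 to 0.070 for Amotl2, -0.35 to 0.11 for Lats2, -0.82 to -0.50 for Axl and -0.16 to 0.011 for Vgll4. Called genes numbered 0 to 2 higher and 0 to 4 lower in the kinase module, 1 to 3 lower at junctions, 0 to 1 lower among TEAD and VGLL genes, 1 to 3 higher among further targets and 5 to 8 lower among SRF targets. The cause of these changes was not tested. Dim members such as Ankrd1 and the parental spread of Ctgf limit what 3 arrays a group can show.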

Other observations

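Some values outside the comparisons above were singled out after they were seen. Gadd45a, a stress-induced growth arrest gene on the list of further YAP and TAZ targets, read 8152 on HML2 replicate 1, against 614 and 933 on the other HML2 arrays and 631, 330.3 and 323 in parental cells. Its difference of 1.93 was not called without the replicate number (limma adjusted p = 0.11) and was called with it as a block (adjusted p = 0.013). Ccdc80, a matrix protein gene of the same list, was below the level for testing: it read 3.49, 4.32 and 20.4 in HML2, within the range of the bacterial controls, against 69.6, 77.3 and 110.5 in parental cells, so its groups did not overlap. Btrc, the gene of a ubiquitin ligase subunit that recognises phosphorylated YAP, was below that level too, at 47.9, 63.8 and 63.8 in HML2 against 91.7, 116 and 91.1 in parental cells.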
